A study of Mus musculus with 24 samples.

Results

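OTX2 was targeted for degradation at either of 2 times in mouse definitive endoderm. The genes described here are those whose response changed between 24 h (DE1) and 48 h (DE2). For each gene the effect of the degrader dTAG13 against the vehicle DMSO was taken at each time on the log2(value + 1) scale. The DE1 effect was then subtracted from the DE2 effect. That difference was called for 895 of 15037 genes tested (5.95%) at a Benjamini-Hochberg adjusted p under 0.05 in limma. It rests on 12 of the 24 libraries of the series.

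The 12 libraries are polyA RNA of cells with a BL6/129 hybrid genotype that carry OTX2-dTAG-EGFP, and every group has this fusion, DMSO controls included. DE2 with dTAG13, DE2 with DMSO, DE1 with dTAG13 and DE1 with DMSO hold 3 libraries each, and lines 7H, 7H1 and 7H2 gave 1 apiece. Cells were first taken to a primitive streak state (PS) for 16 h, with CHIR (3 µM), which activates WNT signalling, and activin A (40 ng/ml). For the next 24 h or 48 h the medium held LDN (100 nM), which blocks BMP receptors, and activin A (100 ng/ml). dTAG13 or DMSO was present for 21 h, so each effect describes about the last day before harvest. No group held cells without the fusion, and no protein level was used here. Loss of OTX2 and other effects of the compound therefore cannot be told apart. That the dose given at PS belongs to DE1 and the one given at DE1 to DE2 is inferred from the order of the stages. The other 12 libraries are epiblast stem cells (EPI) and PS cells with the same treatments. The labels do not say how the lines relate to each other, and p-values cover the spread between these 3 lines alone.

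Definitive endoderm is the germ layer that forms the gut tube and its organs, and its cells pass from a mesenchymal streak state to an epithelium as they are specified. OTX2 is a homeodomain transcription factor of the epiblast and of the anterior embryo, and it binds DNA at sites such as TAATCC. A dTAG fusion protein is handed to the proteasome when dTAG13 is added, so the protein is lost while the gene stays intact.

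Values are the authors' normalised read counts. The 12 libraries summed to 25.23 to 26.72 M, with 15260 to 16536 genes above 0, the 10 highest genes at 4.76 to 6.29% and mitochondrial genes at 1.55 to 2.24% of the total. The labelled cell type was checked on 10 endoderm markers (Sox17, Foxa2, Gata4, Gata6, Cxcr4, Cer1, Hhex, Eomes, Epcam and Cdh1), of which none was under 10 in all libraries of a group. Their summed level was 119800 to 142800 in DE2 with dTAG13 and 117600 to 163600 in DE2 with DMSO, and 90490 to 114900 in DE1 with dTAG13 against 124300 to 150700 in DE1 with DMSO. Such a sum follows its highest genes and does not show that single markers were unchanged. In a longer list of 24 endoderm genes, 9 were called lower and 1 higher with dTAG13 at DE2 (8.31% and 8.65% of all genes). At DE1 4 were called lower and 0 higher (4.02% and 3.74% of all genes). In bulk RNA, fewer cells of a type and less RNA per cell cannot be told apart.

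The Otx2 transcript itself (GRCm38, GENCODE M21, as for all genes here, chr14:48657677-48673819, minus strand) does not check depletion, since the degrader acts on the protein. Library values are given in the order 7H, 7H1, 7H2. It stood at 10552, 13640.2 and 13218 with dTAG13 and 8625, 12385 and 9470.5 with DMSO at DE2. At DE1 it stood at 12024, 13704 and 13790.0 with dTAG13 and 8656, 10972 and 10215 with DMSO. Within each line the dTAG13 library was the higher one at both times. The difference was -0.11 (SE 0.28, adjusted p = 0.894), and neither effect was called (log2 0.30 at DE2, adjusted p = 0.336, and 0.41 at DE1, adjusted p = 0.253). With the cell line as a block both effects passed the threshold (adjusted p = 0.0104 at DE2 and 0.00256 at DE1), and the difference still did not (adjusted p = 0.588).

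The difference was positive for 439 called genes (2.92%) and negative for 456 (3.03%). A positive difference means that the effect of dTAG13 was more positive at DE2, and it can come from higher values at DE2, from lower values at DE1, or from both. Of the 439 genes, 273 were called at DE2 alone, as higher with dTAG13, and 77 at DE1 alone, as lower. Another 32 were higher at DE2 and lower at DE1, 14 were higher at both times, 8 were lower at both and 35 were called at neither time. Of the 456 genes, 295 were called at DE2 alone, as lower with dTAG13, and 81 at DE1 alone, as higher. Another 19 were lower at DE2 and higher at DE1, 25 were lower at both, 2 were higher at both and 34 were called at neither.

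Among called genes, negative differences were larger than positive ones. Their median was -2.04 on the log2 scale, and 376 of the 456 were at least 2-fold. For the 439 positive ones the median was 0.80, and 158 were at least 2-fold. Of the 895 called genes 771 had a mean of at least 50. With at least 50 required in at least 3 DE libraries, 469 positive and 396 negative differences were called. The part of expression level in the sizes was not tested. All 439 had the same sign in each of the 3 lines, as did 453 of the 456. These are the libraries that gave the calls, so the signs describe the called genes and are no further test. The last gene inside the threshold was Abtb2 (log2 difference -1.08, adjusted p = 0.0499), and the first outside was Etv5 (-1.64, adjusted p = 0.05, or 0.00475 with the line as a block). At an unadjusted p under 0.05, 2958 genes passed.

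The effect was wider at DE2, where 2551 genes (17.0%) were called, 1301 higher (8.65%) and 1250 lower (8.31%) with dTAG13. At DE1 1167 genes (7.76%) were called, 562 higher (3.74%) and 605 lower (4.02%). The comparisons at DE2 and DE1 share no library. Across the 11715 genes with a mean of at least 50 their effects had a Pearson's r of 0.423, a description over genes, which are not independent and share 3 lines. Of the 605 genes lower at DE1, 291 were also lower at DE2, 32 were higher and 282 were not called. Of the 562 genes higher at DE1, 244 were also higher at DE2, 19 were lower and 299 were not called.

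The counts depended on the fit and on the number of lines kept, and leaving out a line leaves 2 libraries per group. With the line as a block 2258 differences were called, 1146 positive and 1112 negative, and 436 of the 439 and 451 of the 456 were among them. Without line 7H 318 genes were called (136 positive, 182 negative), without 7H1 174 (59 and 115) and without 7H2 197 (99 and 98). Scaling the libraries to equal totals moved the share of positive differences among the calls to 38%, against 49.1% here. It moved the median difference of all genes from -0.006 to -0.078.

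**Figure D1:**
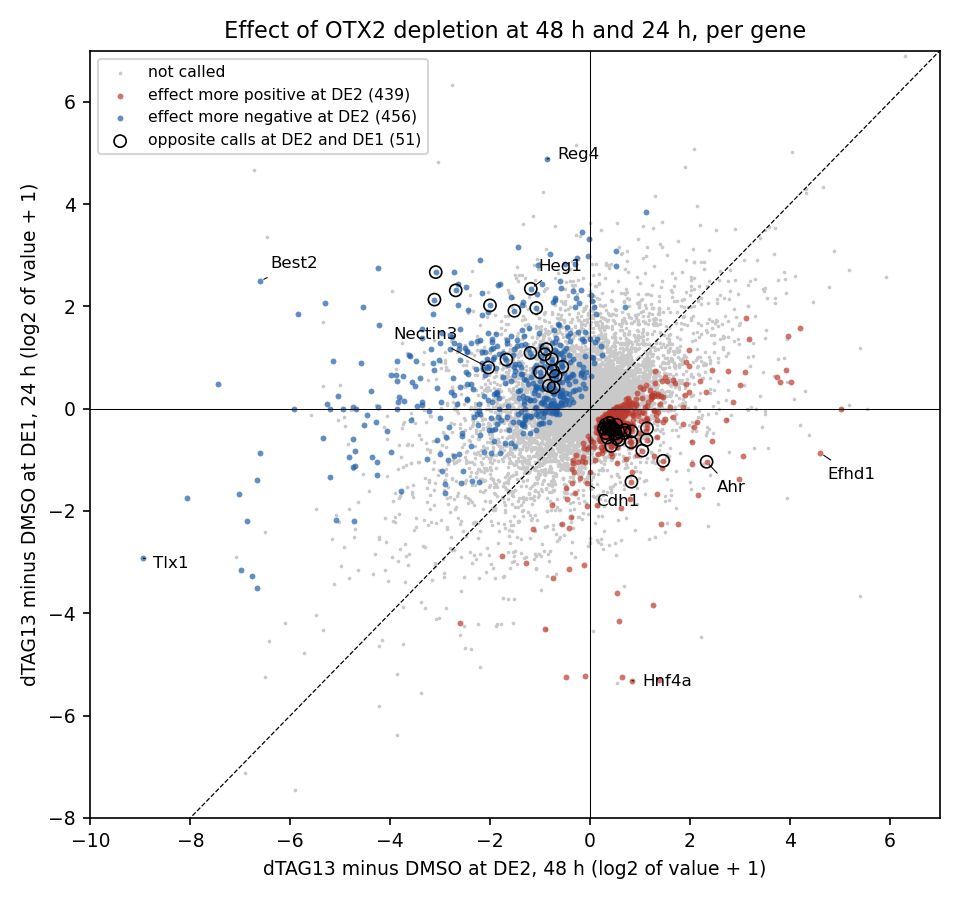
Effect of dTAG13 per gene at DE2 (horizontal axis) and at DE1 (vertical axis), each as log2 of value + 1 with dTAG13 minus that with DMSO, for the 15037 tested genes; the dashed line marks equal effects. Red and blue points are the 439 positive and 456 negative differences called, and rings mark the 51 genes called in opposite directions at DE2 and DE1, at the lower right and upper left.

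The EPI and PS libraries do not enter the difference itself, but they share its estimate of spread and count in the filter on low values that set which genes were tested. At PS 33 genes (0.219%) were called among all genes and at EPI 13 (0.0865%). Of the 439 positive-difference genes, 1 was higher and 1 lower at PS, and their median effect there was -0.092 with 31.2% above 0, against -0.005 and 48.6% for all genes. At EPI 0 were higher and 2 lower, with a median of -0.041 and 35.1% above 0, against -0.013 and 47.0% for all genes. Of the 456 negative-difference genes, 4 were higher and 4 lower at PS (median 0.053, 54.8% above 0), and at EPI 0 were higher and 1 lower (median -0.047, 39.9% above 0). So 2 of the 439 and 8 of the 456 were called at PS.

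The 12 largest positive differences among genes with a mean of at least 50 were mostly of 2 kinds. Hnf4a, Clip4, Serpinb6c, Alx1, Ism2, Hecw2 and Tmem154 were lower with dTAG13 at DE1 and not called at DE2. Efhd1, Gpr155, Cadps and Cyp1b1 were higher with dTAG13 at DE2 and were not called at DE1, and Ahr was higher at DE2 and lower at DE1.

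Hnf4a (chr2:163506808-163572910, plus strand), a nuclear receptor of liver and gut epithelium, stood at 16.6, 299.8 and 584 with dTAG13 and 41.7, 211 and 58.9 with DMSO at DE2. The DE1 values were 1.95, 0 and 0 with dTAG13 and 27.4, 57.4 and 113 with DMSO. The treatments overlapped at DE2 and were fully apart at DE1, where the gene was at or near 0 with dTAG13. Its difference was 6.16 (SE 1.43, adjusted p = 0.0119).

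Tmem154 (chr3:84666192-84704575, plus strand) showed the same form with a tighter spread. It had 196, 106 and 117 with dTAG13 and 267, 252 and 233 with DMSO at DE2, and 9.8, 4.84 and 5.87 with dTAG13 and 153, 158 and 135 with DMSO at DE1. Neither pair of groups overlapped, and the gap at DE1 was much the wider (log2 -4.31, adjusted p = 1.89e-06, against -0.89, adjusted p = 0.207, at DE2). With the line as a block its DE2 effect was called lower as well (adjusted p = 0.0417). The difference was 3.41 (SE 0.65, adjusted p = 0.00286).

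Alx1, a homeobox gene of craniofacial mesenchyme, averaged 437 ± 318 with dTAG13 and 559 ± 263 with DMSO at DE2, and 8.14 ± 3.57 with dTAG13 and 334 ± 83.9 with DMSO at DE1 (SD, n = 3 each). Ism2, which encodes a secreted protein of the isthmin family, averaged 90.9 ± 18.9 with dTAG13 and 60.8 ± 12.7 with DMSO at DE2, and 17.4 ± 14.0 with dTAG13 and 249 ± 7.86 with DMSO at DE1 (SD, n = 3 each). Both were called lower with dTAG13 at DE1 and were not called at DE2. Ism2 was also lower with dTAG13 at EPI (log2 -3.05, adjusted p = 0.0278). Their differences were 4.78 (SE 1.15, adjusted p = 0.0156) and 4.71 (SE 0.77, adjusted p = 0.000954).

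Serpinb6c belongs to a cluster of related serpin genes, among which the counting may have split reads. Its effects were -0.10 at DE2 and -5.22 at DE1, a difference of 5.12 (SE 1.01, adjusted p = 0.00375). Hecw2, an E3 ubiquitin ligase, had effects of 0.54 at DE2 and -3.61 at DE1, a difference of 4.15 (SE 1.0, adjusted p = 0.0146). Clip4, which encodes a CAP-Gly linker protein, had the largest estimate and the widest error of the 12. It stood at 0, 0 and 28.1 with dTAG13 and 76.5, 228 and 99.2 with DMSO at DE1, and its difference of 6.68 (SE 1.87, adjusted p = 0.0371) was not called with the line as a block (adjusted p = 0.0765) and lost its call in 17 of the 25 alternatives (other settings, and lines or libraries left out).

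Efhd1 (chr1:87264363-87310839, plus strand), which encodes a mitochondrial calcium-binding protein, rose with dTAG13 at DE2 alone. It stood at 1384, 381 and 978 with dTAG13 and 60.5, 11.7 and 44.9 with DMSO at DE2, and at 5.77, 4.13 and 0 with dTAG13 and 8.76, 3.32 and 3.97 with DMSO at DE1. The treatments were fully apart at DE2 and overlapped at DE1, at values under 10. The difference was 5.47 (SE 1.09, adjusted p = 0.00416).

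Of 37 named genes with the largest differences or reversals, 28 had a promoter in the RefSeq table (GRCm38.p6), and Efhd1 was the 1 gene with TAATCC, or GGATTA on the other strand, in the 250 bases before its start. Its upstream stretch (chr1:87264103-87264352, plus strand) is shown because of that match, in capitals, 187 bases before the start.
Efhd1: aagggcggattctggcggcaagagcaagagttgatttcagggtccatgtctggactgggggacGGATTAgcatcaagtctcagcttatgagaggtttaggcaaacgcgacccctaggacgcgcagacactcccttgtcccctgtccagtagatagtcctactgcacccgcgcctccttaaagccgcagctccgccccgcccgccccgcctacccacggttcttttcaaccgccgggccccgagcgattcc
A match is a description of the letters and not a binding site. TAATCC on either strand, from 250 bases before to 50 after the start, was found in 21 of 434 promoters of positive-difference genes (4.84%) and 24 of 451 of negative-difference genes (5.32%), against 815 of 14379 promoters of all tested genes (5.67%). The shares among called genes were thus no higher than the share over all tested genes.

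Cyp1b1 (chr17:79701537-79715061, minus strand) encodes a cytochrome P450 enzyme known as a transcriptional target of the aryl hydrocarbon receptor, whose own gene, Ahr, is among the reversals. Cyp1b1 stood at 1756, 1825 and 1083 with dTAG13 and 206, 118 and 57.0 with DMSO at DE2, and at 121, 226 and 133 with dTAG13 and 136, 114 and 64.3 with DMSO at DE1. The groups did not overlap at DE2 and overlapped at DE1, and the difference was 3.13 (SE 0.80, adjusted p = 0.0228). Gpr155, a lysosomal cholesterol sensor, averaged 715 ± 488 with dTAG13 and 37.8 ± 17.8 with DMSO at DE2 (SD, n = 3 each), and its difference was 3.51 (SE 0.69, adjusted p = 0.00354). Cadps, which primes dense-core vesicles for release, averaged 347 ± 81.5 with dTAG13 and 32.0 ± 30.0 with DMSO at DE2 (SD, n = 3 each), and its difference was 3.16 (SE 0.80, adjusted p = 0.0208). Neither Gpr155 nor Cadps was called at DE1 (log2 0.52 and 0.76).

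Ism2 and Ahr kept their calls in all 25 alternatives. Leaving out line 7H ended the calls of 5 of these 12 genes (Clip4, Serpinb6c, Alx1, Hecw2 and Cyp1b1), leaving out 7H1 those of 9 (the same 5 with Hnf4a, Efhd1, Gpr155 and Cadps) and leaving out 7H2 those of 7 (Clip4, Hnf4a, Efhd1, Alx1, Tmem154, Cadps and Cyp1b1), at adjusted p of 0.0501 to 0.396. Leaving out single libraries ended the call of Cyp1b1 in 6 cases (adjusted p = 0.0514 to 0.0647) and that of Cadps without the DE1 dTAG13 library of 7H (adjusted p = 0.0524).

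**Figure D2:**
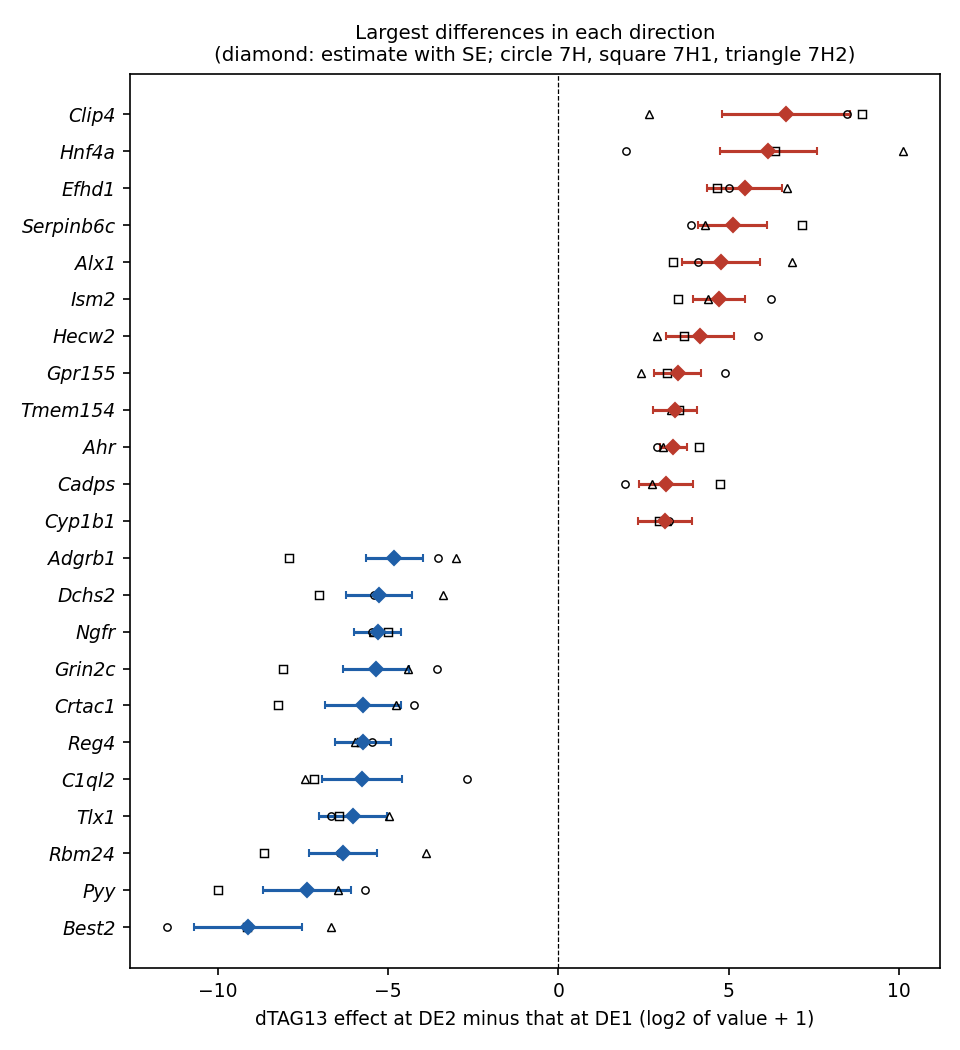
The 12 largest positive and 11 of the 12 largest negative differences of the dTAG13 effect, DE2 minus DE1, among called genes whose mean reached 50 (log2 of value + 1). Diamonds are estimates with their SE and open symbols the 3 lines. By the rule that chose the genes, every line lies on the same side of 0 as its estimate. The lines of Hnf4a and Clip4 are spread the widest of the 23.

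The largest negative differences at the same minimum mean of 50, of which 11 are described, were mostly genes with far lower values with dTAG13 at DE2. Best2, Rbm24, Pyy, Tlx1, Crtac1, Grin2c, Ngfr, Dchs2 and Adgrb1 were each lower with dTAG13 at DE2, as was C1ql2. Of these, Tlx1 was also lower at DE1 and C1ql2 was higher there. Reg4 alone among the 11 was called only at DE1, as higher.

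Rbm24 (chr13:46418434-46431095, plus strand), an RNA-binding regulator of splicing in heart and muscle, stood at 4.01, 0 and 26.1 with dTAG13 and 1159.7, 1926 and 1170.4 with DMSO at DE2. At DE1 it stood at 119.7, 81.5 and 136 with dTAG13 and 326, 399 and 397 with DMSO. It was lower with dTAG13 in every line at both times, but the effect was -8.07 at DE2 and -1.75 at DE1, where it was not called (adjusted p = 0.147). The difference was -6.31 (SE 0.99, adjusted p = 0.000629).

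Tlx1 (chr19:45150680-45156943, plus strand), a homeobox gene required for the spleen, had 0, 0 and 1.7 with dTAG13 and 362, 1152 and 764 with DMSO at DE2. It had 8.23, 3.02 and 6.29 with dTAG13 and 31.8, 53 and 65.5 with DMSO at DE1. The groups were apart and called lower at both times, and the vehicle level was the higher at DE2 (difference -6.02, SE 1.01, adjusted p = 0.00116).

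Pyy (chr11:102106676-102107832, minus strand), the gut hormone peptide YY, stood at 0.847, 4.74 and 13.9 with dTAG13 and 99.3, 401 and 243 with DMSO at DE2, and at 0.825, 13.5 and 4.37 with dTAG13 and 0.933, 0 and 0 with DMSO at DE1. Best2, a chloride channel of the bestrophin family, was listed at 0, 0 and 52.3 with dTAG13 and 239.7, 563 and 361 with DMSO at DE2, and at 10.9, 0 and 14.0 with dTAG13 and 0, 0 and 0 with DMSO at DE1. Both genes had values under 15 at DE1 in either treatment, so their differences of -7.37 (SE 1.28, adjusted p = 0.00156) and -9.10 (SE 1.58, adjusted p = 0.00156) depend on the pseudocount of 1 and are not fold bounds.

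Reg4 (chr3:98222156-98236748, plus strand), a secreted lectin of gut epithelium, was instead affected at DE1. It stood at 151, 72.9 and 49.5 with dTAG13 and 338, 91.9 and 106 with DMSO at DE2, and at 40.9, 81.4 and 76.2 with dTAG13 and 1.13, 0.861 and 1.6 with DMSO at DE1. The treatments overlapped at DE2, while at DE1 every dTAG13 library was far above every DMSO library. The difference was -5.74 (SE 0.82, adjusted p = 0.000226).

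Several of the others are known from neurons. Grin2c, an NMDA receptor subunit, averaged 6.51 ± 5.66 with dTAG13 and 691 ± 361 with DMSO at DE2 (SD, n = 3 each), and its difference was -5.35 (adjusted p = 0.00203). Ngfr, the p75 neurotrophin receptor, averaged 10.3 ± 2.5 with dTAG13 and 378 ± 107 with DMSO at DE2 and 11.6 ± 9.51 with dTAG13 and 7.81 ± 3.12 with DMSO at DE1, and its difference was -5.30 (adjusted p = 9.16e-05). Adgrb1, an adhesion receptor of synapses and phagocytes, had effects of -3.87 at DE2 and 0.94 at DE1. Crtac1, a matrix protein of cartilage, had effects of -6.60 and -0.87, and Dchs2, a dachsous cadherin, of -6.67 and -1.40, DE2 before DE1. These 3 had adjusted p of 0.00156, 0.00354 and 0.00229 in the difference.

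Reg4 and Ngfr kept their calls in all 25 alternatives. Leaving out 7H ended the calls of Best2, Rbm24 and Crtac1, leaving out 7H1 those of Pyy, Tlx1, C1ql2, Dchs2 and Adgrb1, and leaving out 7H2 those of C1ql2, Crtac1 and Grin2c (adjusted p = 0.0511 to 0.144).

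In 51 genes (0.339% of those tested) dTAG13 acted in opposite directions, with each time and the difference called. Of these, 32 were higher at DE2 and lower at DE1, and 19 were lower at DE2 and higher at DE1. All 51 had both signs in each of the 3 lines, which are those that gave the calls, and 10 changed at least 2-fold at both times. With the line as a block there were 258 such genes, the 51 among them, and without a line there were 7 to 11. At PS 1 of the 32 and 0 of the 19 were called, and at EPI 0 of either.

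Of the 10 reversals of at least 2-fold, Scube1, Slpi, Ntng2 and Mgll, all lower at DE2 and higher at DE1, had means under 50 and are named after their values were seen. Scube1, a secreted EGF-domain protein, had effects of -2.69 at DE2 and 2.31 at DE1, and Mgll, monoglyceride lipase, of -1.51 and 1.92, DE2 before DE1. Slpi, a secreted protease inhibitor, and Ntng2, a netrin-G protein, had means of only 5.25 and 2.33. The reversals described next had a mean of at least 50.

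Ahr (chr12:35497974-35535038, minus strand), the aryl hydrocarbon receptor, a ligand-activated transcription factor, had the largest reversal of the first kind by the smaller of its effects. It stood at 1167, 1535 and 1556 with dTAG13 and 223, 209.9 and 462 with DMSO at DE2. At DE1 it stood at 80.1, 74.4 and 82.4 with dTAG13 and 115, 182 and 208 with DMSO. All dTAG13 libraries lay above all DMSO libraries at DE2 and below them at DE1. The effects were 2.33 (adjusted p = 4.03e-06) at DE2 and -1.04 (adjusted p = 0.0229) at DE1, a difference of 3.37 (SE 0.40, adjusted p = 2.46e-05).

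Slc40a1 (chr1:45908068-45926523, minus strand) encodes ferroportin, the iron exporter. Its values were 1567, 1783 and 852 with dTAG13 and 903, 708 and 664 with DMSO at DE2, and 691, 592 and 616 with dTAG13 and 1655, 1780.0 and 1669 with DMSO at DE1. At DE2 the dTAG13 library of 7H2 fell below the DMSO library of 7H, so the groups overlapped there, while at DE1 they did not. The difference was 2.26 (SE 0.28, adjusted p = 4.03e-05).

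Pls3, which encodes the actin-bundling protein plastin 3, averaged 13454 ± 3979.5 with dTAG13 and 5994 ± 1035 with DMSO at DE2, and 6066 ± 236 with dTAG13 and 9265 ± 352 with DMSO at DE1 (SD, n = 3 each). Ap1s3, a subunit of the AP-1 clathrin adaptor, averaged 1931 ± 252 with dTAG13 and 931 ± 87.0 with DMSO at DE2, and 1324 ± 122 with dTAG13 and 2334 ± 193 with DMSO at DE1 (SD, n = 3 each). Neither gene's groups overlapped at either time. Their differences were 1.74 (adjusted p = 0.000143) and 1.87 (adjusted p = 7.32e-06).

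Duxbl1, a double homeobox gene with near-identical copies that may share its reads, had effects of 1.46 at DE2 and -1.02 at DE1. Fam46a, a poly(A) polymerase gene, had 0.82 and -0.65, Gnai1, a G protein subunit, had 0.58 and -0.61, and Pacsin2, a membrane-bending protein, had 0.53 and -0.58, DE2 before DE1. Over all 32 genes the median effect was 0.49 at DE2 and -0.43 at DE1, so most of these reversals were small. The 32 include 9 ribosome biogenesis factors, described further on.

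Reversals of the second kind were larger, with median effects of -1.08 at DE2 and 1.06 at DE1 over the 19 genes. Nectin3 (chr16:46387706-46498525, minus strand), an adhesion molecule of adherens junctions, stood at 297, 196 and 410.0 with dTAG13 and 1020.0, 1157 and 1398 with DMSO at DE2. The DE1 values were 535, 538 and 504 with dTAG13 and 334, 283 and 286 with DMSO. The groups did not overlap at either time, with dTAG13 below DMSO at DE2 and above it at DE1. The difference was -2.84 (SE 0.26, adjusted p = 1.87e-06).

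Heg1 (chr16:33684370-33771576, plus strand), a transmembrane receptor of heart and vessel walls, showed the same form. Its values were 214, 374 and 171 with dTAG13 and 590.0, 517 and 530.5 with DMSO at DE2, and 769.6, 519 and 566 with dTAG13 and 137, 97.8 and 126 with DMSO at DE1. Again no groups overlapped, and the difference was -3.53 (SE 0.57, adjusted p = 0.000759). C1ql2, a secreted C1q-like protein of synapses, stood at 4, 0 and 1.54 with dTAG13 and 5.82, 19.9 and 53.9 with DMSO at DE2, and at 479, 326 and 470.1 with dTAG13 and 102, 46.2 and 58.2 with DMSO at DE1. Its level was low at DE2 in both treatments, and the difference was -5.76 (SE 1.16, adjusted p = 0.0045).

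Tll1, a tolloid-like metalloprotease, averaged 568 ± 176 with dTAG13 and 1261 ± 123 with DMSO at DE2, and 687 ± 59.0 with dTAG13 and 321 ± 5.06 with DMSO at DE1 (SD, n = 3 each). Gas6, a ligand of the TAM receptor kinases, averaged 407 ± 127 with dTAG13 and 731 ± 137 with DMSO at DE2, and 1106 ± 9.97 with dTAG13 and 503 ± 122 with DMSO at DE1 (SD, n = 3 each). The groups of both genes were apart at both times. Fbxo32, an F-box protein of muscle wasting, had effects of -1.67 and 0.96, Syt9, a synaptotagmin, of -1.08 and 1.97, and Nptxr, the neuronal pentraxin receptor, of -0.91 and 1.06, DE2 before DE1. All 3 were called in the difference (adjusted p = 0.000634, 0.00133 and 0.00693).

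Ahr, Duxbl1, Slc40a1, Ap1s3, Pls3, Fbxo32 and Nectin3 kept the call of the difference in all 25 alternatives. Leaving out 7H ended it for Pacsin2 and Syt9, leaving out 7H1 for Fam46a and C1ql2, and leaving out 7H2 for Fam46a, Gnai1, Pacsin2, C1ql2, Heg1, Tll1, Nptxr and Gas6 (adjusted p = 0.0522 to 0.144).

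**Figure D3:**
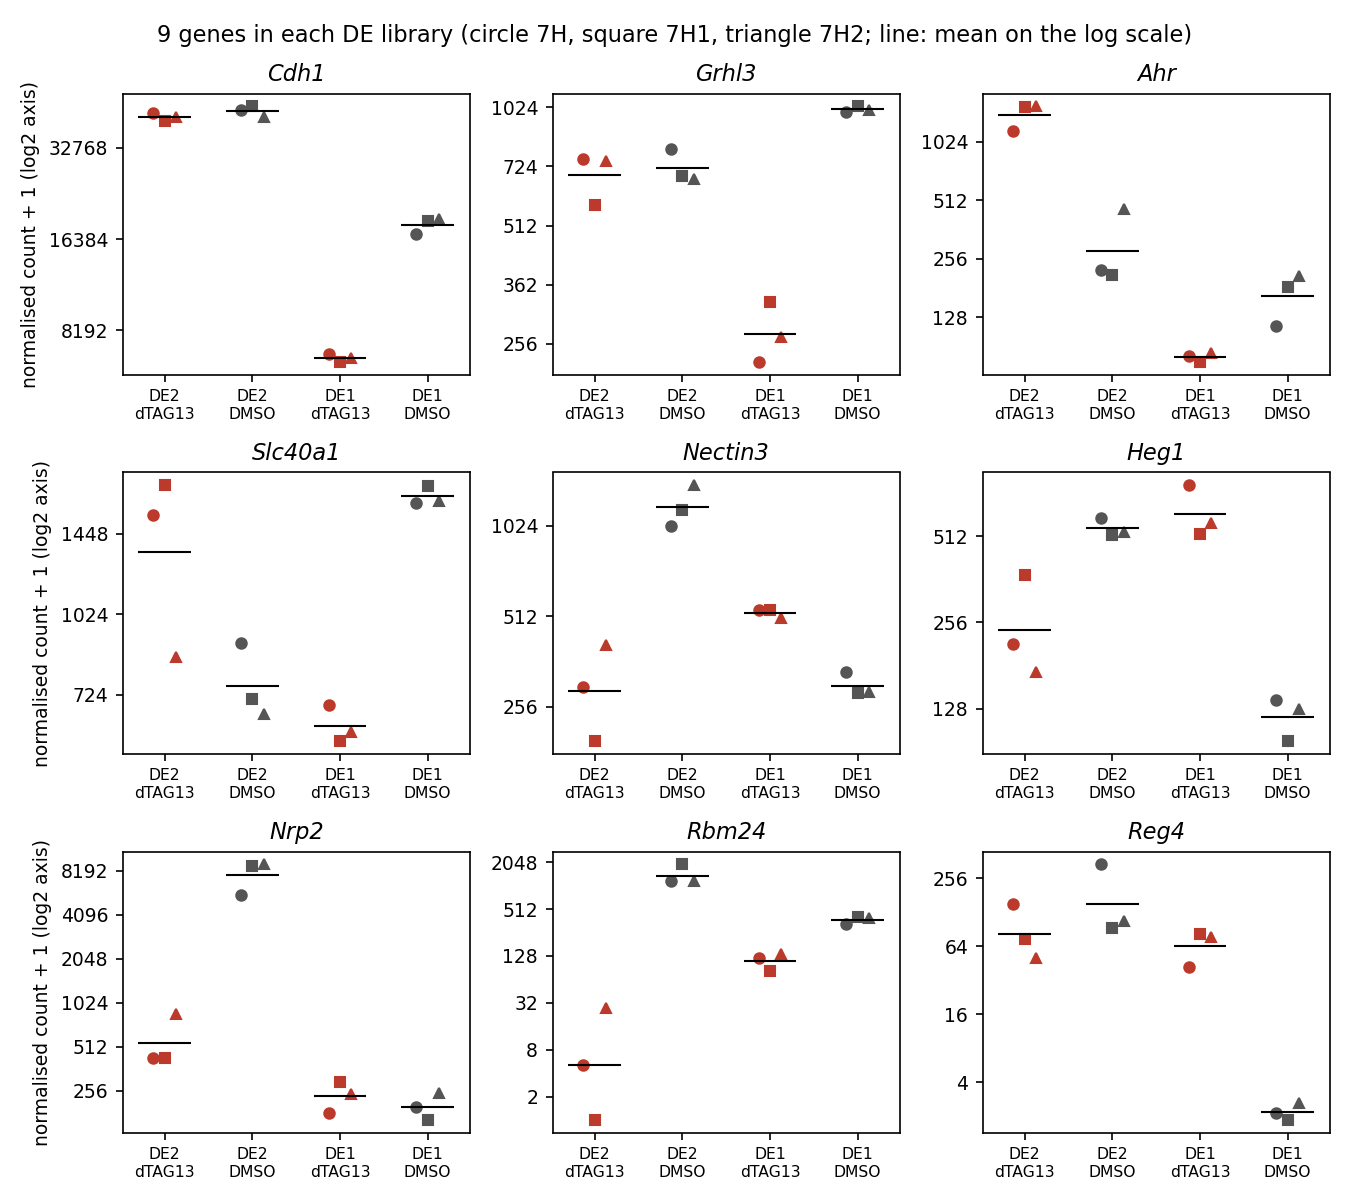
Normalised count + 1 on a log2 axis in each of the 12 DE libraries for 9 genes described in the text; symbols mark the lines, red dTAG13 and grey DMSO, and the bar is the mean on the log scale. Cdh1 and Grhl3 differ between treatments at DE1 only, Ahr, Slc40a1, Nectin3 and Heg1 change sides between DE2 and DE1, Nrp2 differs at DE2 only, Rbm24 is lower with dTAG13 in every line at both times with a call at DE2 only, and Reg4 differs at DE1 only.

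The epithelial genes Cdh1, Grhl3 and Grhl2 were lower with dTAG13 at DE1 and were not called at DE2. Cdh1 (chr8:106603351-106670246, plus strand), which encodes E-cadherin, had the smallest p of any positive difference. It stood at 42665, 40009 and 41271 with dTAG13 and 43705, 44893 and 41456 with DMSO at DE2. At DE1 it stood at 6862, 6437 and 6622 with dTAG13 and 16954, 18784 and 19110.2 with DMSO. The treatments overlapped at DE2, and at DE1 every dTAG13 library was far below every DMSO library. The effect was -0.07 (adjusted p = 0.63) at DE2 and -1.46 (adjusted p = 1.54e-10) at DE1, a difference of 1.39 (SE 0.11, adjusted p = 3.14e-07).

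Grhl3 and Grhl2 encode grainyhead-like transcription factors of epithelia. Grhl3 (chr4:135541888-135573630, minus strand) stood at 755, 577 and 747 with dTAG13 and 800.2, 684 and 669.6 with DMSO at DE2, and at 229, 326 and 266 with dTAG13 and 994, 1028 and 1008 with DMSO at DE1. Its groups overlapped at DE2 and were apart at DE1 (log2 -1.89, difference 1.84, SE 0.30, adjusted p = 0.000841). Grhl2 averaged 1393 ± 316 with dTAG13 and 1276 ± 109.8 with DMSO at DE2, and 276 ± 66.7 with dTAG13 and 549.9 ± 56.6 with DMSO at DE1 (SD, n = 3 each). Its difference was 1.12 (SE 0.27, adjusted p = 0.0144), and it was lost without 7H (adjusted p = 0.186) or 7H2 (adjusted p = 0.152).

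In the list of epithelial transcription factors and keratins 2 of 22 members were called higher in the difference, both of them grainyhead-like genes, and 0 lower, with a list median of -0.13 against -0.01 for all genes. In the list of cadherins and junctions 3 of 25 were higher (Cdh1, Cdh2 and Cldn7) and 3 lower (Cdh4, Cdh6 and Pcdh1), with a median of 0.23. Cldn7, a claudin of tight junctions, averaged 4358 ± 461 with dTAG13 and 2518 ± 167 with DMSO at DE2, and 881 ± 64.3 with dTAG13 and 1298 ± 112 with DMSO at DE1 (SD, n = 3 each), a difference of 1.35 (adjusted p = 0.00839). Cdh2, which encodes N-cadherin, stood at 7624, 9799.6 and 6688 with dTAG13 and 2246, 821 and 875 with DMSO at DE2, and at 16370.5, 16815 and 15475 with dTAG13 and 10376, 8879.9 and 9953 with DMSO at DE1. Cdh2 was thus above DMSO at both times, with a call at DE2 alone (log2 2.76, against 0.74 at DE1, adjusted p = 0.0794) and a difference of 2.02 (adjusted p = 0.00176). Cdh4, which encodes R-cadherin, had effects of -2.96 at DE2 and 1.48 at DE1, a difference of -4.43 (adjusted p = 0.000659). Leaving out 7H2 ended the calls of Cldn7, Cdh2 and Cdh4 and leaving out 7H1 that of Cdh2 (adjusted p = 0.0572 to 0.148).

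The counts of endoderm regulators and of the other lists stand beside 2.92% of all genes called higher in the difference and 3.03% called lower. In the definitive endoderm list 1 of 24 members was called higher (Cdh1) and 2 lower (Gsc and Gata4), with a median of -0.17. Gata4 (chr14:63198922-63271692, minus strand), a zinc finger factor of endoderm and heart, stood at 2188, 3465 and 1544 with dTAG13 and 6343, 10412 and 8602 with DMSO at DE2, and at 3538, 4009.8 and 4059 with dTAG13 and 2664, 3306 and 3655 with DMSO at DE1. It was well below DMSO at DE2 and overlapped it at DE1 (difference -2.15, SE 0.55, adjusted p = 0.0246). This call was lost without any 1 of the lines (adjusted p = 0.0854 to 0.189) and in 5 of the 12 cases with a single library left out (adjusted p = 0.0522 to 0.0612). Gsc, the goosecoid homeobox gene of the organizer, averaged 1298 ± 474 with dTAG13 and 8964 ± 1832 with DMSO at DE2, and 7007 ± 229 with dTAG13 and 13963 ± 814 with DMSO at DE1 (SD, n = 3 each). It was lower with dTAG13 in every library at both times, with a call at DE2, and at DE1 only with the line as a block (adjusted p = 0.000387). It was also called lower at EPI (log2 -1.85, adjusted p = 0.0278). The difference was -1.85 (adjusted p = 0.0193), and this call too was lost without any 1 line (adjusted p = 0.0504 to 0.188).

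Of 18 anterior endoderm genes 1 was higher (Cyp26a1) and 3 lower (Prox1, Pyy and Gsc; median -0.27), and in the list of foregut and its organs 1 of 23 was higher (Hnf4a) and 3 lower (among them Prox1 and Tbx3; median -0.91). Prox1, a homeobox gene of liver and pancreas progenitors, averaged 501 ± 127 with dTAG13 and 604 ± 241 with DMSO at DE2, and 597 ± 101 with dTAG13 and 209 ± 28.3 with DMSO at DE1 (SD, n = 3 each). It was raised at DE1 alone (difference -1.74, adjusted p = 0.00752). Tbx3, a T-box factor, had effects of -2.20 at DE2 and 1.34 at DE1 (difference -3.54, adjusted p = 0.00231). The posterior endoderm and HOX list had 0 of 18 called either way (median -0.69), and its smallest p belonged to Hoxb9 (difference -2.04, adjusted p = 0.0553, or 0.0385 with the line as a block).

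In the gut and neuroendocrine list 1 of 13 members was higher and 2 lower (median -0.66). Insm1 (chr2:146221921-146225020, plus strand), a zinc finger factor of neuroendocrine cells, stood at 565, 846 and 714 with dTAG13 and 78.8, 33.1 and 32.7 with DMSO at DE2, and at 106, 126 and 142 with dTAG13 and 48.4, 53.7 and 37.0 with DMSO at DE1. The groups were apart at both times and in the same direction, and the rise was larger at DE2 (log2 3.96, against 1.42 at DE1, difference 2.54, adjusted p = 0.00518). Pcsk2, a prohormone convertase, was at low levels of 1.83, 3.34 and 5.06 with dTAG13 and 9.08, 15.7 and 39.0 with DMSO at DE2 (difference -4.00, adjusted p = 0.00901). The hepatic and visceral endoderm secretory list had 1 of 16 called, Hnf4a (median -0.14).

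Among lists of other lineages, the mesoderm list had 0 of 26 higher and 3 lower (Pax3, Tbx3 and Tbx20; median -0.85) and the neural crest list 0 of 12 higher and 3 lower (Pax3, Ngfr and Msx1; median -0.86). Msx1 (chr5:37820485-37824583, minus strand), a homeobox gene of crest and mesenchyme and a BMP target, stood at 5.99, 7.51 and 7.7 with dTAG13 and 14.1, 17.7 and 15.1 with DMSO at DE2. The DE1 values were 181, 119 and 126 with dTAG13 and 10.1, 36.9 and 18.0 with DMSO. It was higher with dTAG13 at DE1 (log2 2.81), and at DE2 all libraries were under 20 (difference -3.86, SE 0.54, adjusted p = 0.000191). Tbx20, a T-box factor of heart and lateral plate, averaged 105 ± 46.6 with dTAG13 and 1329 ± 416 with DMSO at DE2, and 509 ± 42.1 with dTAG13 and 469 ± 124 with DMSO at DE1 (SD, n = 3 each). Its difference was -3.88 (adjusted p = 0.00657), and that of Pax3, a paired-box gene of crest and somites, was -3.86 (adjusted p = 0.00758).

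The primitive streak and axial mesendoderm lists had Gsc as their only call (medians -0.26 over 22 and -0.60 over 15). In the epiblast list Sox3 was higher (1.89, adjusted p = 0.0295) and Dnmt3a, a DNA methyltransferase, lower (-0.97, adjusted p = 0.00819) of 20. In the neural list 1 of 24 was higher (Sox3) and 2 lower (among them Pax2), with a median of -0.42. No member was called in the endothelium and blood (12 tested), heart and muscle (15), trophoblast (11) or germ cell (5) lists, whose smallest p belonged to Kdr (-2.77, adjusted p = 0.0716), Myl4 (-4.16, adjusted p = 0.051), Plac1 (-3.44, adjusted p = 0.0713) and Prdm1 (0.45, adjusted p = 0.594). Plac1 passed with the line as a block (adjusted p = 0.0406). Kdr, the VEGF receptor of endothelium, stood at 644, 539 and 403 with dTAG13 and 124, 71.2 and 81.5 with DMSO at DE1 and its difference passed with the line as a block (adjusted p = 0.00105).

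Summed levels of marker lists of other cell types moved with the groups. The 5 epiblast markers summed to 9459 to 10290 in DE2 with dTAG13 and 19260 to 26470 in DE2 with DMSO, and to 11750 to 13710 in DE1 with dTAG13 and 19500 to 19580 in DE1 with DMSO. The 4 streak markers summed to 1238 to 2262 in DE2 with dTAG13 and 263.7 to 1295 in DE2 with DMSO, and to 10420 to 12840 in DE1 with dTAG13 and 3645 to 4728 in DE1 with DMSO. Summed epiblast markers were thus lower with dTAG13 at both times, and summed streak markers were higher at DE1 and overlapped at DE2. A sum follows its highest genes. The longer epiblast list of 20 tested genes had a median effect of -0.24 at DE2 and 0.03 at DE1. Of these, 3 were higher and 5 lower at DE2 (8.65% and 8.31% of all genes). At DE1 1 was higher and 3 were lower (3.74% and 4.02% of all genes).

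The 8 mesoderm markers summed to 227.1 to 365.3 in DE2 with dTAG13 and 198.5 to 494.3 in DE2 with DMSO, with Mesp1 at 0 in both, and to 480.2 to 729.8 in DE1 with dTAG13 and 392 to 412.9 in DE1 with DMSO. The 5 neural markers summed to 416.9 to 666.3 in DE2 with dTAG13 and 1885 to 2533 in DE2 with DMSO, and to 125.1 to 182.5 in DE1 with dTAG13 and 333.2 to 406.1 in DE1 with DMSO. The 6 endothelial and blood markers summed to 148.7 to 371.6 in DE2 with dTAG13 and 183.3 to 222.6 in DE2 with DMSO, and to 1892 to 2029 in DE1 with dTAG13 and 810.3 to 892.1 in DE1 with DMSO, with Tal1 at 0 in both DE1 groups. Summed neural markers were thus lower with dTAG13 at both times. Summed endothelial and blood markers were higher at DE1 alone. The longer neural list was mixed, with a median effect of -0.54 at DE2 and 0.75 at DE1. Of its 24 tested members 5 were higher and 4 lower at DE2, and 1 higher and 2 lower at DE1. In the endothelium and blood list 2 of 12 were higher and 1 lower at DE1 (median 0.64). Over all genes 8.65% were higher and 8.31% lower at DE2, and 3.74% and 4.02% at DE1.

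The 5 heart and muscle markers, of which Myh6 was at 0 in all groups, summed to 152.1 to 231 in DE2 with dTAG13 and 286.4 to 324.9 in DE2 with DMSO, and to 172.9 to 302.6 in DE1 with dTAG13 and 481.6 to 504 in DE1 with DMSO. The 3 trophoblast markers summed to 861.6 to 938.6 in DE2 with dTAG13 and 2296 to 2801 in DE2 with DMSO, and to 295.5 to 358.8 in DE1 with dTAG13 and 192.2 to 207.2 in DE1 with DMSO. The 3 neural crest markers summed to 137.6 to 287.6 in DE2 with dTAG13 and 50.78 to 404.4 in DE2 with DMSO, and to 33.2 to 42.76 in DE1 with dTAG13 and 13.13 to 25.91 in DE1 with DMSO. Summed trophoblast markers therefore lay on opposite sides at the 2 times. Hand1, 1 of these 3 genes, is also among the mesoderm markers. In the longer trophoblast list of 11 tested genes, 2 were higher and 3 lower at DE2 (median -1.08). At DE1 2 were higher and 2 lower (median 0.77), and 0 were called in the difference. Markers of visceral endoderm and liver (3 of 4 in the table) and of germ cells (3) summed to under 100 in every library. The part of these shifts in the differences of single genes was not tested.

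Among signalling lists, hedgehog had 0 of 12 members higher and 2 lower in the difference (median -0.39). Gas1 (chr13:60174405-60177365, minus strand), a hedgehog co-receptor, stood at 391, 357 and 165 with dTAG13 and 1304, 2627 and 2063 with DMSO at DE2, and at 1332, 1043 and 866 with dTAG13 and 741, 708 and 661 with DMSO at DE1. The groups were apart at both times and on opposite sides, with a call at DE2 alone (difference -3.35, SE 0.58, adjusted p = 0.00165). Boc, another co-receptor, had effects of 0.02 at DE2 and 2.21 at DE1 (difference -2.19, adjusted p = 0.0228).

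In the list of WNT ligands, receptors and targets 1 of 30 was higher and 2 lower (median -0.06). Wnt4, a WNT ligand, stood at 2332, 1499 and 1607 with dTAG13 and 309, 123 and 192 with DMSO at DE2, and at 67.9, 103 and 87.7 with dTAG13 and 42.7, 34 and 23.1 with DMSO at DE1. It was raised at both times and more at DE2 (difference 1.82, adjusted p = 0.0257). This call was lost without any 1 line (adjusted p = 0.131 to 0.183) and in 5 of the 12 cases with a single library left out (adjusted p = 0.0557 to 0.0739). Lef1, the WNT effector (-1.67, adjusted p = 0.0295), and Bambi, a BMP and WNT pseudoreceptor (-1.21, adjusted p = 0.0187), were lower. The WNT antagonist list had 0 of 19 higher and 2 lower, Shisa3 (-2.80, adjusted p = 0.0107) and Dkk3 (-2.94, adjusted p = 0.0117). The BMP list had 0 of 23 higher and 2 lower, Msx1 and Bambi (median 0.09), and the NODAL list 0 of 22 either way (median -0.07), with Smad2 at the smallest p (-0.48, adjusted p = 0.0578, or 0.029 with the line as a block).

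In the retinoic acid list 2 of 16 were higher and 1 lower (median -0.24). Cyp26a1 (chr19:37697798-37701536, plus strand), the enzyme that degrades retinoic acid, stood at 17569, 15859 and 13429 with dTAG13 and 6415, 5429 and 3429 with DMSO at DE2, and at 7511, 11179 and 9265 with dTAG13 and 7867, 12511 and 10945 with DMSO at DE1. The groups were apart at DE2 and overlapped at DE1 (difference 1.81, SE 0.39, adjusted p = 0.00866). Rdh10, which makes retinal, averaged 2251 ± 412 with dTAG13 and 476 ± 306 with DMSO at DE2 (SD, n = 3 each; difference 1.69, adjusted p = 0.0249). The receptor gene Rxrg was lower (-2.92, adjusted p = 0.0155).

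In the NOTCH list 1 of 20 was higher and 2 lower (median 0.13). The ligand gene Jag1 averaged 1511 ± 409.7 with dTAG13 and 595 ± 121 with DMSO at DE2, and 2247 ± 90.1 with dTAG13 and 2448 ± 229 with DMSO at DE1 (SD, n = 3 each), a difference of 1.44 (adjusted p = 0.00158). The receptor gene Notch1 (-1.31, adjusted p = 0.0206) and the target gene Hey2 (-3.88, adjusted p = 0.0101) were lower. Of 24 FGF and ERK feedback genes, the inhibitors Spry1 (0.90, adjusted p = 0.0165) and Spred2 (0.64, adjusted p = 0.0236) were higher and Spry4 was lower (-0.71, adjusted p = 0.0498). Spry1 rose with dTAG13 at both times, Spred2 was lower at DE1 alone and Spry4 lower at DE2 alone.

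In the guidance and Eph list 2 of 36 members were higher (Slit1 and Epha7) and 3 lower (Nrp2, Slit3 and Efnb2), with a median of -0.17. Nrp2 (chr1:62703285-62818695, plus strand), the neuropilin receptor of semaphorins and VEGF, stood at 432, 429 and 863 with dTAG13 and 5649, 8886 and 9104 with DMSO at DE2. At DE1 it stood at 180.4, 293 and 242 with dTAG13 and 198, 161 and 247 with DMSO. The vehicle level at DE2 was far above every other group, and the treatments overlapped at DE1 (difference -4.06, SE 0.46, adjusted p = 2.18e-05). Slit3, a ROBO ligand, had effects of -0.30 at DE2 and 2.0 at DE1 (adjusted p = 0.00312 in the difference), and its relative Slit1 of 1.87 and 0.03 (adjusted p = 0.0279). The Eph receptor gene Epha7 was lower with dTAG13 at both times and less so at DE2, with -1.13 against -2.36 at DE1 (adjusted p = 0.00452).

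Of the metabolic lists, glycolysis and hypoxia had 2 of 22 members higher and 1 lower (median 0.39). Hk2, a hexokinase, was lower with dTAG13 at DE1 (log2 -0.86, against 0.41 at DE2, adjusted p = 0.00283 in the difference), as was Eno1, an enolase (-0.45 against 0.30, adjusted p = 0.0146). With the line as a block both were also called higher at DE2 (adjusted p = 0.0415 and 0.00891). Ndrg1 was lower in the difference (-1.47, adjusted p = 0.0109). Acaca, the first enzyme of fatty acid synthesis, was the 1 call of 21 cholesterol and lipid genes (1.32, adjusted p = 0.00411). Bcl2, which blocks apoptosis, was the 1 call of 18 in the p53 and apoptosis list (-1.74, adjusted p = 0.0118), and Col18a1 the 1 of 25 in the matrix list (-1.55, adjusted p = 0.026). No member was called in the cell cycle list (28 tested, median 0.02), the immediate early list (20), the Hippo list (16) or the unfolded protein list (18, median 0.50). Their smallest p belonged to Cdk6 (adjusted p = 0.131, 3.12e-05 with the line as a block), Klf2 (0.0522, 0.00528), Amot (0.181, 0.0362) and Xbp1 (0.055, 0.0169), each second value with the block. In the unfolded protein list, 9 of 18 genes were higher with dTAG13 at DE2 (against 8.65% of all genes) and 1 at DE1 (against 3.74%).

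Of the 44 list genes named here that were called in the difference and are not among the largest differences or the reversals, Cdh1, Grhl3, Hk2, Msx1 and Nrp2 kept the call in all 25 alternatives. Leaving out a whole line leaves 2 libraries per group. Without line 7H 21 of the 44 lost it, among them Tbx3, Pcsk2 and Dkk3 (adjusted p = 0.0504 to 0.186). Without line 7H1 30 lost it, among them Prox1, Cyp26a1, Insm1 and Acaca (0.053 to 0.485), and without line 7H2 37, among them Jag1, Hey2, Spry1 and Gas1 (0.0522 to 0.286). The calls of Bambi, Boc, Col18a1, Eno1, Gata4, Lef1, Notch1, Pax2, Rdh10, Slit1, Sox3, Spred2, Spry4 and Wnt4 were lost when 1 or another single library was left out (0.0503 to 0.115). Pcsk2, Spry4, Rxrg, Rdh10, Notch1, Boc, Slit1, Pax2 and Spred2 lost theirs with another scaling or with the 12 DE libraries fitted alone, and Spry4 also with 3 other settings (pseudocount 0.5, no filter on low values, and no trend with no robust step; 0.0505 to 0.0801).

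**Figure D4:**
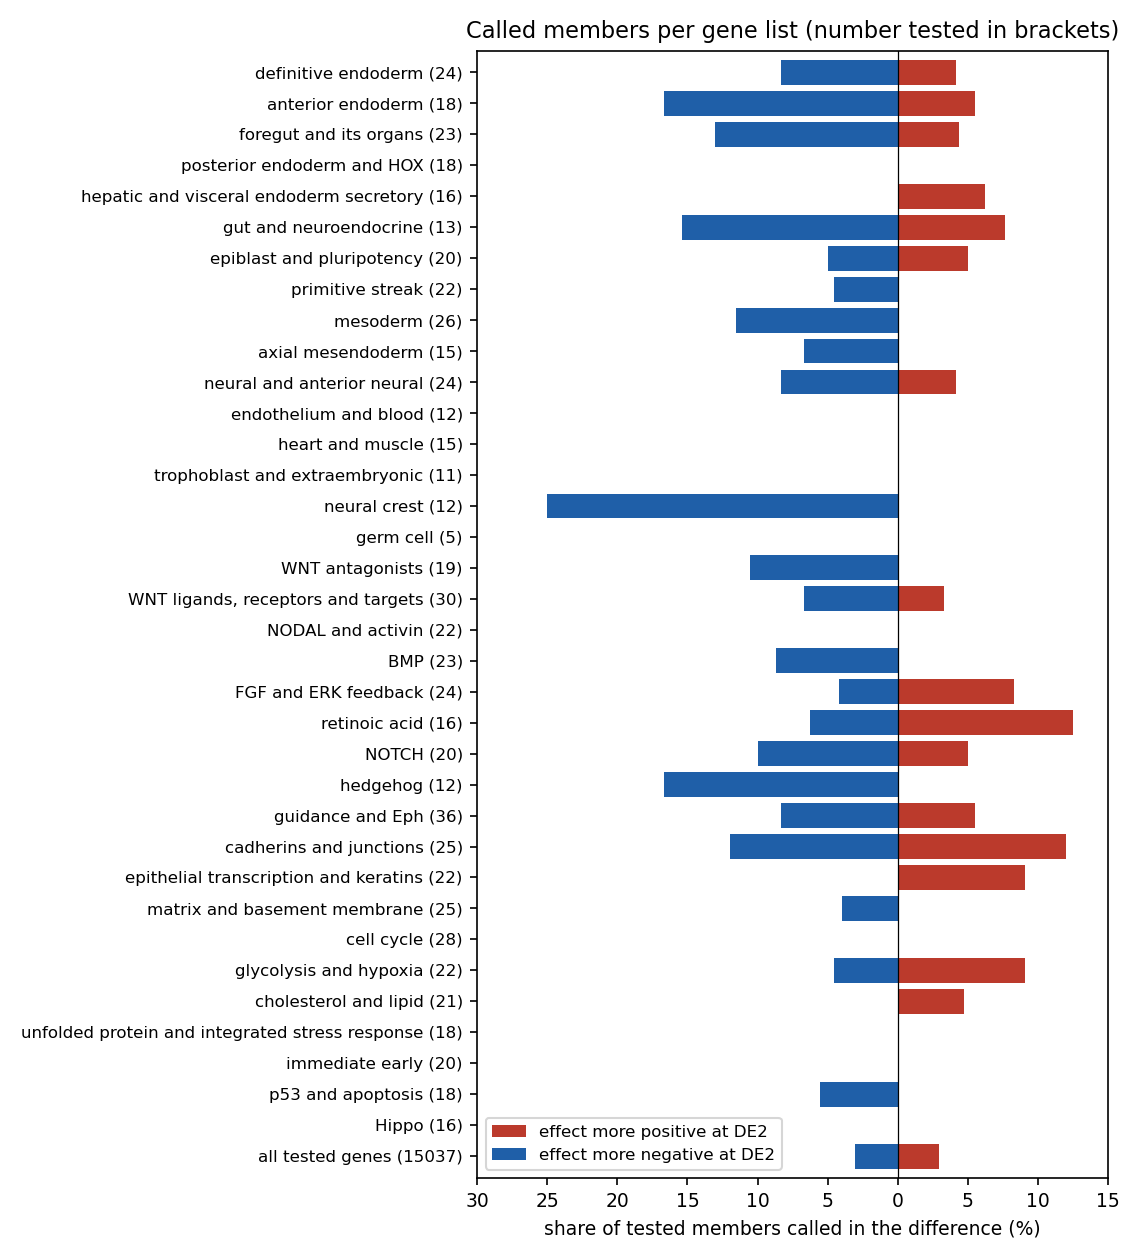
Share of the tested members of each gene list that were called in the difference, to the right for a dTAG13 effect more positive at DE2 and to the left for one more negative (%); the number tested is in brackets and the bottom row holds all 15037 genes. Bars of short lists rest on 1 to 3 genes, and the neural crest bar at the left is 3 of 12.

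Genes of ribosome production were frequent among the positive differences. This list of 111 ribosome biogenesis factors, which process ribosomal RNA and assemble the subunits, was drawn up after the values had been seen, so its counts describe it and test nothing. Of its 110 tested members, 57 were called higher in the difference (against 2.92% of all genes called higher) and 0 lower, with a median of 0.60 against -0.01 for all genes. They made up 13% of all 439 positive calls. At DE2 55 members were higher with dTAG13 (against 8.65% of all genes) and 0 lower (median 0.36), and 106 of 110 lay above 0. At DE1 0 were higher and 13 lower (against 4.02% of all genes; median -0.19), and 100 of 110 lay below 0. At PS and at EPI 0 were called. With libraries scaled to equal totals 44 members were higher in the difference (median 0.53) and 4 were lower at DE1, and with quantile normalisation 46 and 5 (median 0.53).

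Called members differed by 0.47 to 1.13 on the log2 scale, small beside the changes above. Over the 110 tested members the median difference was 0.58 in 7H, 0.74 in 7H1 and 0.38 in 7H2. The summed level of the list was 312100 to 344100 in DE2 with dTAG13 and 230100 to 282100 in DE2 with DMSO, and 330500 to 347200 in DE1 with dTAG13 and 386800 to 406100 in DE1 with DMSO. The groups did not overlap at either time and changed sides between them.

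Rrp15 (chr1:186720978-186749358, minus strand), a nucleolar factor of ribosome assembly, had the smallest p of the list. It stood at 1390.3, 1295 and 1211 with dTAG13 and 823, 591 and 805 with DMSO at DE2, and at 1059, 996 and 935 with dTAG13 and 1309, 1202 and 1178 with DMSO at DE1 (difference 1.13, SE 0.16, adjusted p = 0.000168). Noc2l, a nucleolar complex protein, stood at 5441, 5667 and 5113 with dTAG13 and 4159, 4525 and 4386 with DMSO at DE2, and at 4294, 4322 and 4313 with dTAG13 and 6218, 5888 and 5887 with DMSO at DE1 (difference 0.79, SE 0.12, adjusted p = 0.000657). In both genes every dTAG13 library was above every DMSO library at DE2 and below at DE1. Ddx21, a nucleolar RNA helicase, averaged 8599.7 ± 394 with dTAG13 and 6240.1 ± 1166 with DMSO at DE2, and 5891 ± 219 with dTAG13 and 7856 ± 241 with DMSO at DE1 (SD, n = 3 each; difference 0.89, adjusted p = 0.00206).

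Related lists, also chosen after the values were seen, went the same way. Over all genes 2.92% were called higher in the difference and 3.03% lower. Of 20 cytosolic aminoacyl-tRNA synthetases 10 were higher in the difference and 0 lower (median 0.56), of 19 purine and pyrimidine synthesis genes 6 and 0 (median 0.40), of 25 subunits of RNA polymerases I and III 5 and 0 (median 0.14) and of 7 CCT chaperonin genes 2 and 0 (median 0.38). The 84 cytosolic ribosomal protein genes did not, with 0 called either way in the difference and a median of -0.03. Their summed level was 1183000 to 1327000 in DE2 with dTAG13 and 1311000 to 1432000 in DE2 with DMSO, and 1922000 to 2064000 in DE1 with dTAG13 and 1903000 to 2288000 in DE1 with DMSO. Polr1b, a subunit of RNA polymerase I, was itself a reversal (log2 0.49 at DE2 and -0.48 at DE1).

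**Figure D5:**
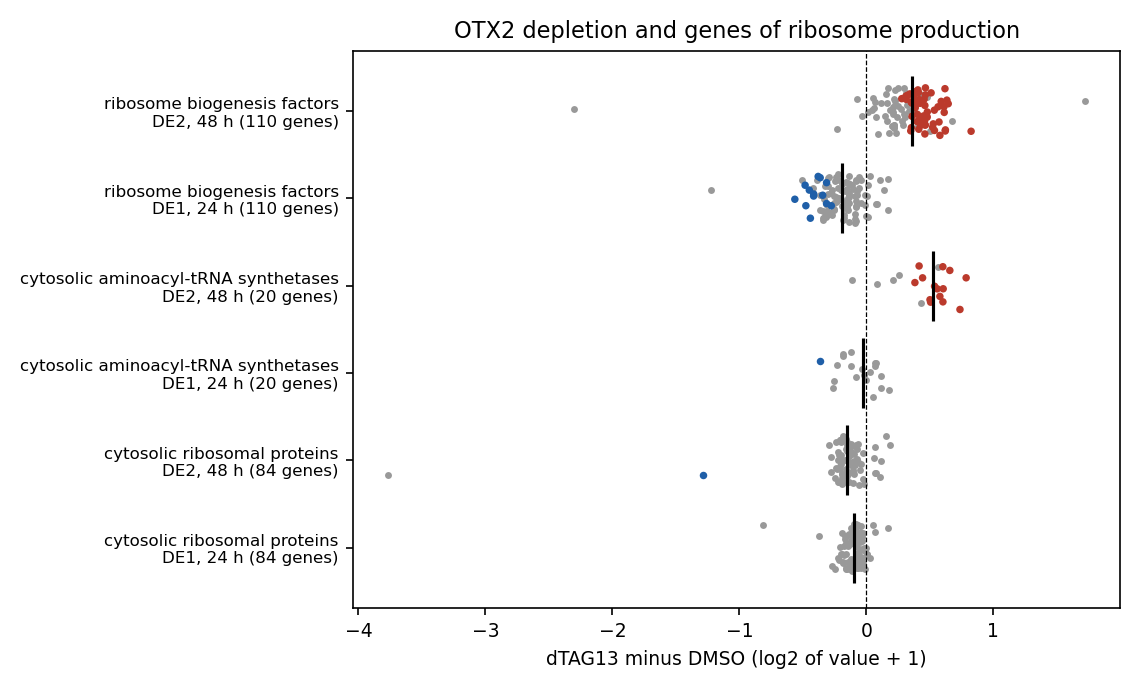
Effect of dTAG13 (log2 of value + 1, dTAG13 minus DMSO) per gene at DE2 and DE1 for 3 lists chosen after the values were seen; red and blue points are called higher and lower, grey ones are not called, and black bars are medians. Ribosome biogenesis factors have a median of 0.36 at DE2 and -0.19 at DE1, while of the 84 ribosomal protein genes 0 were called in the difference.

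The counts of this list depend on the number of lines, and its median less so. Without 7H, 7H1 or 7H2, 16, 2 and 15 members were called in the difference, and the median was 0.60, 0.50 and 0.71. With 1 library left out, 40 to 58 were called in the difference, 21 to 59 at DE2 and 3 to 19 at DE1. The 13 members lower at DE1 became 29 with the line as a block, 4 when libraries were scaled to equal totals and 5 with quantile normalisation. The 55 members higher at DE2 became 28, 7 and 38 without 7H, 7H1 and 7H2.

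The promoters of these genes were searched for CACGTG, the E-box core bound by MYC and related factors, a motif chosen after the values were seen. It reads the same on both strands, and does not overlap TAATCC. It was found in 13 of 54 promoters of members higher in the difference (24.07%) and in 20 of 99 promoters of all tested members (20.2%), against 1361 of 14379 promoters of all tested genes (9.47%). The window was the one used for TAATCC above, so these counts include matches after the start. Among the matched members higher in the difference, only Rbm19, Nop2, Utp18 and Wdr46 had a match before the start. Sdad1, Ltv1, Tsr1, Mybbp1a, Wdr43, Pes1, Nle1, Pno1 and Utp4 had none there. The upstream stretches of 2 members with a match are shown, with the match in capitals: Rbm19 (chr5:120116263-120116512, plus strand) and Nop2 (chr6:125131633-125131882, plus strand), with matches 6 and 60 bases before the start (RefSeq, GRCm38.p6).
Rbm19: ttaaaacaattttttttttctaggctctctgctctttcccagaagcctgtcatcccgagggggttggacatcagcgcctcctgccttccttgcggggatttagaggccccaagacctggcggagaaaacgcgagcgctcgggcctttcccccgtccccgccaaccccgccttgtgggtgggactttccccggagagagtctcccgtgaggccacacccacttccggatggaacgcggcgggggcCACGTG
Nop2: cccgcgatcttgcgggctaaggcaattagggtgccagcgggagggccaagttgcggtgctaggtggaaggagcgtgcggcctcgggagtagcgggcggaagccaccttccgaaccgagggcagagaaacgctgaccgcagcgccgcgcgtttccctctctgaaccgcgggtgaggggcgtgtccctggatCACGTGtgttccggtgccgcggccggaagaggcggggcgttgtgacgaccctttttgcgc
Rbm19, an RNA-binding processing factor, had effects of 0.47 at DE2 and -0.28 at DE1 (difference 0.74, adjusted p = 0.00784). Nop2, a nucleolar RNA methyltransferase, had 0.43 and -0.29 (difference 0.72, adjusted p = 0.0159). No binding was measured here, and the match says nothing of the factor's activity in these cells.

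A last list, of neuronal cytoskeleton, synapse and vesicle genes, was also drawn up after the values had been seen. Of 41 tested members 3 were higher in the difference and 11 lower (against 2.92% and 3.03% of all genes), with a median of -0.96. The lower ones include Tubb3, a neuronal tubulin (-3.03, adjusted p = 0.00301), Ncam1, the neural cell adhesion molecule (-3.12, adjusted p = 1.24e-05), and Snap25, a SNARE of synaptic vesicles (-2.56, adjusted p = 0.0209). The higher ones were Cadps and the genes of the neuronal RNA-binding proteins Elavl4 and Elavl3 (2.74 and 2.16). The summed level of 5 neural markers was lower with dTAG13 at both times, as given above, while the longer neural list was mixed. The part of neural cells in these differences was not tested. Of 43 lysosome genes 0 were higher and 3 lower (median -0.03), against the same 2.92% and 3.03% of all genes.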

How the data were processed

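RNA of 24 libraries (8 groups of 3) was measured, and the 12 endoderm libraries were compared here. The deposited values are read counts per gene that the authors normalised, a signal that is not whole reads, so no count model was used. The submitters' processing notes name DESeq2 and mm10, without versions. The labels and notes do not name the aligner or whether counting used strand, so reads of a gene and an overlapping antisense gene cannot be told apart. Of 18205 genes, 18120 IDs were found in GENCODE M21 (GRCm38), which gave coordinates. Of the names, 71 were missing and 23 had been turned into dates, and these 23 were restored.

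Genes were tested where 3 or more libraries reached 10 (15037 genes), on log2(value + 1) with limma 3.58.1 (R 4.3.3, trend and robust, statmod 1.5.0). The fit held all 8 groups with 16 residual degrees of freedom, and two-sided p-values were adjusted by Benjamini-Hochberg over all genes at 0.05. The script was tested on simulated data with 1 setting of spread for all genes, which need not match that of these libraries. It recovered 44 of 100 differences of log2 1 and 100 of 100 of log2 2, with 8 false calls among 14521 genes. A gene that is not called is therefore not shown to be unaffected. Python 3.11.15, pandas 2.3.3 and matplotlib 3.10.9 were used for summaries and plots. Depth in reads is unknown, since totals are of normalised values.

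The 3 lines pair the libraries, since the same numbered line gave both treatments. The deviations of same-line libraries correlated at 0.137, 0.183 and 0.187 at DE2 and at 0.152, 0.0703 and 0.105 at DE1. The main fit has no block, and the line as a block within each stage was an alternative, as were other pseudocounts, filters, scalings and libraries left out.

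Named genes were, among genes with a mean of at least 50 over the 12 DE libraries and a symbol that is not a predicted one, the 12 largest positive and negative differences (the same sign in all 3 lines) and 8 reversals each way (by the smaller of their 2 effects). With no minimum mean, up to 4 called members of each gene list with the smallest p were also named (for a list with no call, its smallest p). Members and lists were chosen with earlier results of these data known, and the ribosome, synthetase, polymerase, nucleotide, chaperonin, lysosome and neuronal lists after the values were seen. Single values of 2 genes that this rule names are not reported here, and counts over all genes and lists include them.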

Additional observations from a re-analysis of the deposited data

Results flagged for a closer look

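A test of the difference between the effects at 2 times passed for 895 genes, of which 51 were called in opposite directions. Those described in the report by the naming rule, with a mean of at least 50, are given here. The values below are log2 differences of the dTAG13 effect, DE2 minus DE1. The 12 largest positive differences at that mean were Clip4 (6.68), Hnf4a (6.16), Efhd1 (5.47), Serpinb6c (5.12), Alx1 (4.78), Ism2 (4.71), Hecw2 (4.15), Gpr155 (3.51), Tmem154 (3.41), Ahr (3.37), Cadps (3.16) and Cyp1b1 (3.13). Of the 12 largest negative differences at that mean, 11 were Best2 (-9.10), Pyy (-7.37), Rbm24 (-6.31), Tlx1 (-6.02), C1ql2 (-5.76), Reg4 (-5.74), Crtac1 (-5.74), Grin2c (-5.35), Ngfr (-5.30), Dchs2 (-5.27) and Adgrb1 (-4.81). The further reversals named were Duxbl1 (2.48), Slc40a1 (2.26), Ap1s3 (1.87), Fam46a (1.48), Pls3 (1.74), Gnai1 (1.19) and Pacsin2 (1.10) among genes higher at DE2 and lower at DE1, and Heg1 (-3.53), Tll1 (-2.29), Syt9 (-3.05), Fbxo32 (-2.63), Nptxr (-1.97), Gas6 (-2.04) and Nectin3 (-2.84) among genes lower at DE2 and higher at DE1. With 3 libraries a group, no test for a library far from the others of its group was made.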

How the results depend on the processing

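With the cell line as a block, 2258 differences were called (1146 positive and 1112 negative), with 258 reversals, 4139 genes at DE2 and 2376 at DE1. Leaving out a whole line gave 174 to 318 differences and leaving out 1 library 610 to 1020. Over these cases together, positive differences ranged from 59 to 480, negative ones from 98 to 540 and reversals from 7 to 57. Calls at DE2 ranged from 957 to 2468 and at DE1 from 374 to 1268. Other pseudocounts, filters and fits, and other scalings, kept these counts within 1.5 times.

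The difference of Otx2, called in none of these, ranged from -0.215 to 0.046 when a line or library was left out, being 0.0104 (adjusted p = 0.992) without the DE2 dTAG13 library of 7H and 0.046 (adjusted p = 0.964) without the DE2 DMSO library of 7H1, both by limma. The cause was not tested. Of 81 named genes called in the difference, 15 were called in all 25 alternatives and 0 changed sign in any of them.

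Leaving out a line lowered the counts of calls the most. It also left 2 libraries per group, so the part of the line and that of group size cannot be told apart. With 3 lines a gene of large spread can pass or fail with 1 line. Values under 10 lie near the pseudocount, so large differences of such genes depend on it. Depth in reads is unknown, so no counting error is given.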
